A study of Homo sapiens with 7 samples.

Results

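The 9 genes described here mark lineages other than the neuroblastoma cell: the liver genes ALB, APOB and CYP3A4, the blood genes PTPRC, IKZF1, PAX5, SPI1 and MS4A1, and the epithelial gene TP63. They were chosen as control genes of other lineages. A peak was counted for a gene when its midpoint lay in a fixed hg19 window around that gene, with flanks of about 20 kb. The 9 windows add up to 1199 kb and range from 50 kb (ALB) to 307 kb (TP63). They held 123 of the 285292 peaks at 0 h and 139 of the 352484 peaks at 72 h, or 0.0431% and 0.0394% of the lists.

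The peaks are places where DNA carrying 5-hydroxymethylcytosine (5-hmC) was captured from SK-N-BE(2) cells, an established human neuroblastoma line with amplified MYCN, wild type by its label. One culture condition was 21% oxygen (normoxia, 0 h), and the others were 1% oxygen (hypoxia) for 6, 12, 24, 48 or 72 h. Each time has 1 library and 1 peak list, so no value below has a replicate error and no test was made. Low oxygen, time in culture and differences between libraries cannot be told apart. Lists lengthened with time, by 23.6% from 0 to 72 h, and their read depth is unknown.

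5-hmC is made from 5-methylcytosine by the TET enzymes, which need oxygen, and lies mainly at CG dinucleotides. In many tissues it is found over the bodies and distal control regions of genes in use, and is sparse over silent ones. Genes of foreign lineages can therefore serve as a baseline for it. RNA was not measured in these samples, so whether any of the 9 genes was silent in these cells is not known from the data.

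How far the promoters themselves offer CG dinucleotides differs widely among these genes, as the following sequences show. They are the 250 bases upstream of the annotated start, from RefSeq (GRCh38.p14, a build other than that of the peaks), each 5′ to 3′ on the gene's own strand. Capitals mark each CG, which reads the same on both strands. PAX5 is shown for the window with most peaks, IKZF1 for a promoter equally rich in CG in a window with few, and ALB and CYP3A4 for the windows without peaks.
PAX5: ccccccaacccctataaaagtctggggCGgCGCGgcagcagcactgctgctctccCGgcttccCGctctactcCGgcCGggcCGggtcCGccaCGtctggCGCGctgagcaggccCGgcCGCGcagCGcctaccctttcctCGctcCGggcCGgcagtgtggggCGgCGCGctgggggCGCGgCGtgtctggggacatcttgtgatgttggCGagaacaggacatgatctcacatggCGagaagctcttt
IKZF1 (promoter 1 of 3): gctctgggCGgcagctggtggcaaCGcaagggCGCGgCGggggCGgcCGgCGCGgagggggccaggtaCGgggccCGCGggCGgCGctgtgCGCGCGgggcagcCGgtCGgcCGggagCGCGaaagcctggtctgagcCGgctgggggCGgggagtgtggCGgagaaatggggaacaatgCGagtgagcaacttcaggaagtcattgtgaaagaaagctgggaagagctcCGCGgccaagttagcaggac
ALB: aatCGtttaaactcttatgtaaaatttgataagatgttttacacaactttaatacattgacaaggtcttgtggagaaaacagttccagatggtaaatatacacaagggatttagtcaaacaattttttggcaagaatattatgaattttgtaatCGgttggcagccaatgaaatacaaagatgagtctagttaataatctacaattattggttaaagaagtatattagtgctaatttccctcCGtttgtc
CYP3A4: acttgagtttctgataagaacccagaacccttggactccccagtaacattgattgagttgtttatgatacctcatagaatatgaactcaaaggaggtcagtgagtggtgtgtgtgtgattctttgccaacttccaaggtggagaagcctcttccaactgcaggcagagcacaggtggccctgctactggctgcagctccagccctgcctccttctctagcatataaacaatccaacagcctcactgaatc

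The PAX5 stretch holds 27 CG and the IKZF1 stretch 28, more than 82.3% and 84.1% of the 35116 promoters of the table, whose median is 11. ALB holds 3 and CYP3A4 none, and 93.9% of all promoters hold at least 1. An entry was found for 6 of the 9 genes. The TP63 promoter holds 6 CG and that of PTPRC 1, and the other IKZF1 promoters hold 3 and 0. The number of CG upstream did not order the windows by their peaks: IKZF1 had few peaks with 28 CG, and PTPRC had more with 1. These counts describe the letters of the windows shown and say nothing of the gene bodies.

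The first question was how much 5-hmC enrichment these foreign-lineage genes carried at all. PAX5 and APOB were densely covered, SPI1 and PTPRC were intermediate, IKZF1 and MS4A1 were sparse, and ALB, CYP3A4 and TP63 were empty or nearly so. At 0 h, 4 of the 9 windows were denser than the median 100 kb tile of the genome, which held 60 peaks per Mb, and at 72 h again 4 were, against a tile median of 90 peaks per Mb. The median over the 9 windows was 41.4 peaks per Mb at 0 h and 23.7 at 72 h. IKZF1 was the middle window both times.

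**Figure D1:**
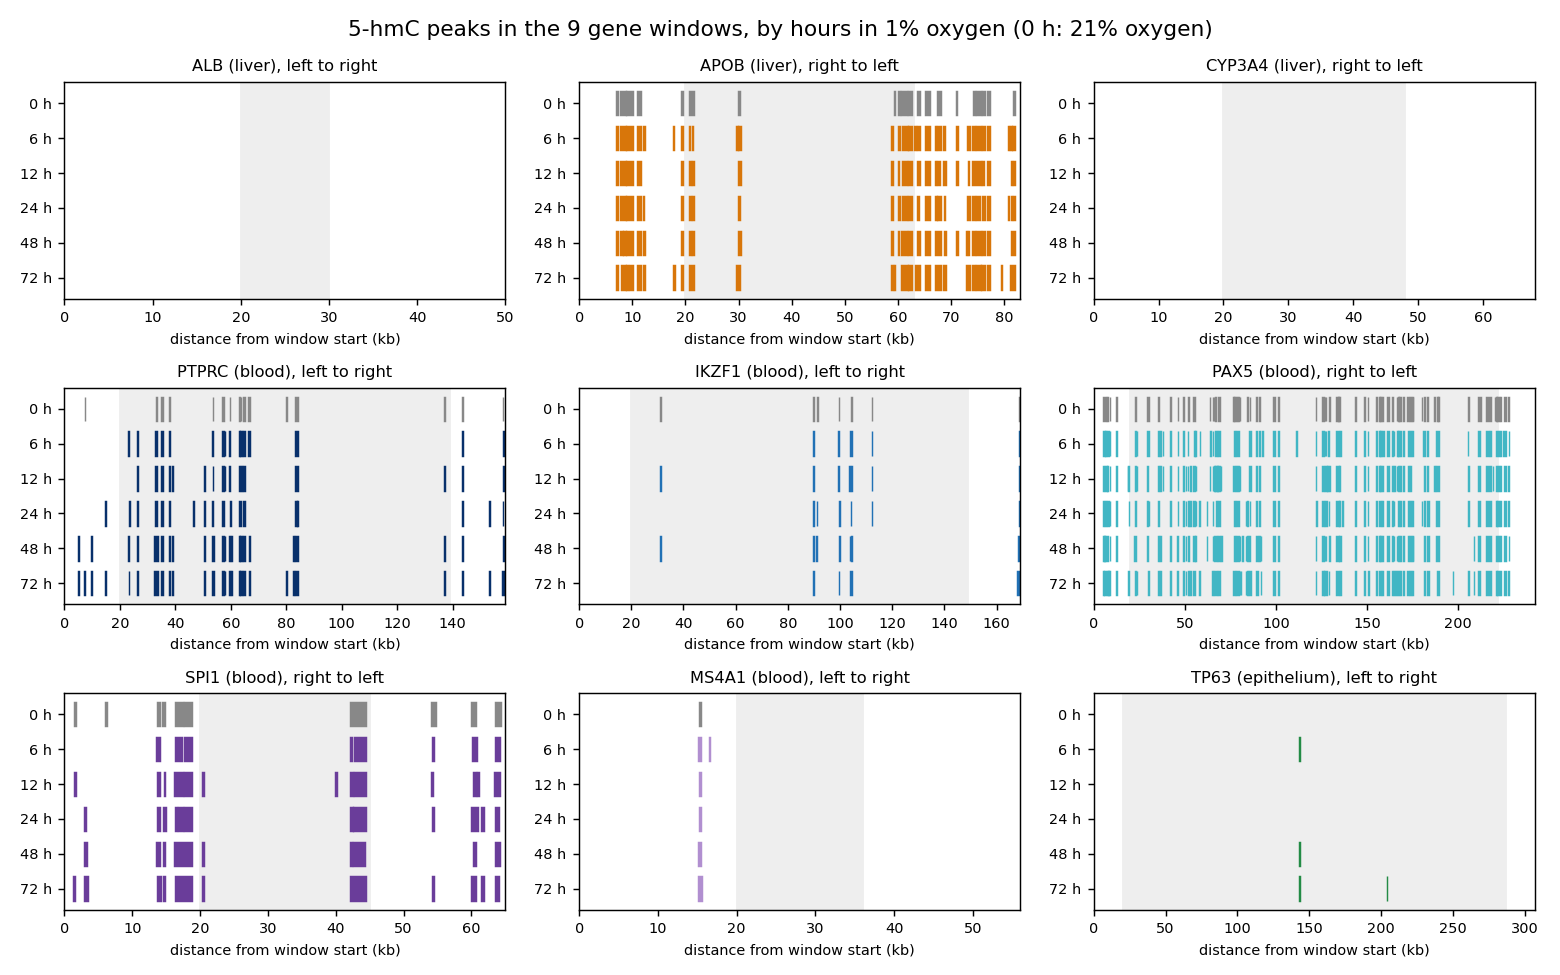
Each panel is 1 gene window drawn to scale in kb from its start, with 1 row per list from 0 h (grey) to 72 h, bars for peaks (with a thin outline so that narrow ones stay visible) and grey shading for the gene body. Titles give the lineage and the direction of transcription. APOB and SPI1 peaks gather outside the middle of the gene, PAX5 peaks fill the gene, and ALB and CYP3A4 have none.

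**Figure D2:**
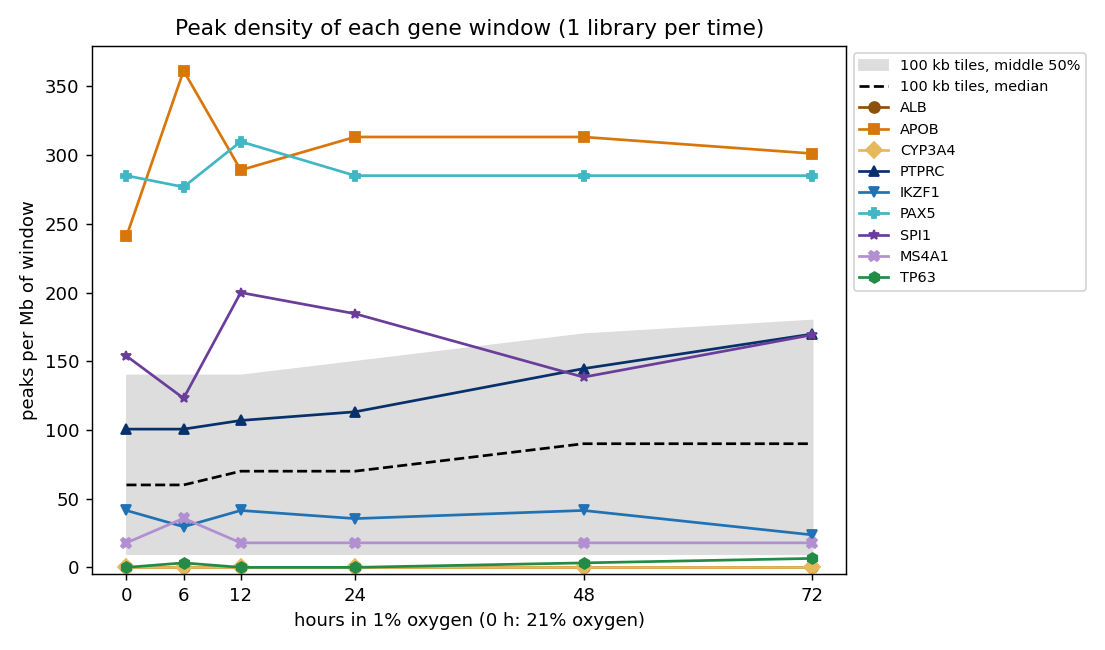
Peaks per Mb of window (vertical axis) against hours in 1% oxygen (horizontal axis), 1 line per gene and 1 library per point. The dashed line is the median of 30339 tiles of 100 kb and the shading their middle 50%. APOB and PAX5 lie above the shading at all 6 times.

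Among the liver genes, APOB stood apart from the others. APOB encodes the structural protein of low-density lipoprotein and chylomicrons, and its window (chr2:21204001-21287000) held 20, 30, 24, 26, 26 and 25 peaks at 0, 6, 12, 24, 48 and 72 h. The peaks covered 15.3% of the window at 0 h and 19.9% at 72 h, where the median tile was covered to 2.43% and 4.02%. The 0 h list was the lowest and the 6 h list the highest of the 6. Of all tiles of the same length, 88.9% held fewer peaks at 0 h and 91.1% at 72 h.

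APOB peaks lay in a pair of clusters at the ends of the gene. The gene body, taken as the window without its flanks, held 6 peaks at 0 h (140 per Mb) and its flanks 14 (350 per Mb). No list had a peak in the 28.3 kb from 21234471 to 21262762, which is most of the 43 kb gene body. The cluster at the 5′ end ran from chr2:21262763, inside the gene body, to chr2:21286044 in the upstream flank. It included a region at chr2:21266983-21268209, next to the 5′ edge of the gene body. That region reached over the edge of the gene body, as the window defines it, only through the narrower of 2 peaks at 6 h. In the other lists its single peak lay just upstream of that edge. The widest peak in it measured 566, 650, 471, 291, 592 and 1044 bp from 0 to 72 h, most at 72 h and least at 24 h.

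ALB and CYP3A4 had no peak in any of the 6 lists. ALB encodes serum albumin, the main secreted protein of hepatocytes, and CYP3A4 a cytochrome P450 that oxidises many drugs. The ALB window (chr4:74250001-74300000) lay in a stretch of 181 kb without a peak in any list, and that of CYP3A4 (chr7:99334001-99402000) in one of 243 kb. Such stretches are common: gaps at least as long as that around CYP3A4 make up 17.4% of the length of the chromosomes, unsequenced parts included. Of all tiles of the CYP3A4 window's length, 27.9% were without peaks at 0 h and 24.4% at 72 h. For ALB's length the figures were 31.4% and 26.9%. Without heights or reads, an empty window says that no peak was called there, not that 5-hmC was absent.

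The blood genes covered nearly the whole range. PAX5, the transcription factor that sets B-cell identity and is also used in the developing midbrain, had the most peaks of any window. Its window (chr9:36813001-37055000) held 69, 67, 75, 69, 69 and 69 peaks from 0 to 72 h. The number was the same at 4 of the 6 times, highest at 12 h and lowest at 6 h. It exceeded that of 94.4% of tiles of the same length at 0 h and 92.2% at 72 h. The covered length was 42.2, 43.9, 44.8, 44.1, 43.9 and 48.8 kb, which is 15.5% more at 72 h than at 0 h. Relative to the total peak length of the lists, which grew more, the covered length at 72 h was 0.882 of that at 0 h.

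In PAX5, unlike APOB, the peaks ran through the whole gene. Of 82 regions (peaks of the 6 lists merged where they overlapped), 73 lay in the gene body, with 36 on the 5′ side of its middle and 37 on the 3′ side. The longest part of the gene body without a region was 10.4 kb, in a gene body of 202 kb. The 5′ edge of the gene body was itself occupied in all 6 lists. Whether the peaks there covered the CG-rich stretch shown above was not examined, since the builds differ. A region at chr9:37034496-37035545 spanned the edge of the gene body, and its peak was 992, 914, 856, 911, 654 and 1017 bp wide from 0 to 72 h. The widest PAX5 peak lay downstream of it inside the gene, at chr9:37028111-37030993, with widths of 2720, 2010, 2873, 2758, 2728 and 2815 bp. At 6 h the region held 2 peaks, and 2010 bp is the wider of them.

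SPI1 encodes PU.1, a transcription factor of myeloid and B cells, and its window (chr11:47356001-47421000) held 10, 8, 13, 12, 9 and 11 peaks. These numbers went up and down with no order in time, lowest at 6 h and highest at 12 h. They covered 13.3% of the window at 0 h and 13.6% at 72 h, and 3 of the 10 peaks at 0 h were at least 1000 bp wide. Most lay outside the gene: the 25 kb gene body held 1 peak at 0 h and the flanks 9. That 1 peak sat near the 5′ end, in a region at chr11:47398081-47400452 that ended 548 bp inside the edge of the gene body. In RefSeq SPI1 measures 23.7 kb, so this edge may differ from that of the annotated gene. The widest peak in this region was 2327, 1782, 1754, 1915, 1835 and 2300 bp wide from 0 to 72 h. The region held 1 peak at 0 and 72 h and 2 peaks at the times between. In RefSeq MYBPC3, a cardiac myosin-binding protein gene, reaches within 20 kb of SPI1 beyond its 3′ end. The lncRNA SLC39A13-AS1 also reaches within 20 kb of SPI1, so peaks in the flanks need not belong to SPI1.

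PTPRC encodes CD45, the tyrosine phosphatase on the surface of leukocytes. Its window (chr1:198588001-198747000) held 16, 16, 17, 18, 23 and 27 peaks, so that no time had fewer than the one before. The peaks covered 6.87 kb at 0 h and 12.2 kb at 72 h, or 77.2% more. Relative to the total peak length of the lists, the peaks covered 1.35 times as much at 72 h as at 0 h. They were narrow, with a median width of 368 bp in normoxia and 340 bp after 72 h, against 395 and 421 bp over the whole lists. Of the 20 regions in the gene body, 16 lay on the 5′ side of its middle. No list had a peak in the 52.6 kb from 198672299 to 198724914. The lncRNA PTPRC-AS1 lies in this gene or within 20 kb of it in RefSeq. Where genes overlap, captured DNA cannot be assigned to either strand's gene.

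IKZF1 encodes Ikaros, a zinc finger factor of lymphoid development, and its window (chr7:50324001-50493000) held 7, 5, 7, 6, 7 and 4 peaks. The 72 h list, the longest of the 6, had the fewest. No list had a peak from 50254512 to 50354842, which takes in the 5′ edge of the gene body as the window defines it. Within the gene body, 5 of the 6 regions lay on the 3′ side of the middle. In RefSeq IKZF1 measures 102 kb and the window leaves 129 kb between its flanks, so this 5′ edge may differ from that of the annotated gene.

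MS4A1 encodes CD20, a surface protein of B cells. Its window (chr11:60203001-60259000) held 1, 2, 1, 1, 1 and 1 peaks, all of them in the upstream flank and none in the gene body. A peak at chr11:60218134-60218551 was present in all 6 lists, 309, 328, 329, 251, 390 and 418 bp wide, and the other was seen at 6 h alone. The nearest regions outside the window were 149 kb below and 130 kb above it.

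TP63 encodes a p53 family factor of the basal layer of stratified epithelia. The window (chr3:189329001-189636000), the longest of the 9, held 0, 1, 0, 0, 1 and 2 peaks. A peak at chr3:189472021-189472447 measured 355, 295 and 427 bp in the lists of 6, 48 and 72 h and was missing in the other lists. A second, of 248 bp, was seen at 72 h alone, near the smallest width of that list (242 bp). Counted to the nearest regions outside, these were the only peaks in 524 kb. Of all tiles of this length, 16.1% held no peak at 0 h and 17.4% held fewer than 2 at 72 h. MIR944, a microRNA gene, lies in TP63 or within 20 kb of it by RefSeq.

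The next comparison asked whether peak number in these windows changed with time in hypoxia beyond the lengthening of the lists. By the size rule given next, 1 window was called at 1 time. Numbers were compared with 0 h after adding 0.5 to both and dividing by the ratio of the list totals. A window was called, by size alone, when it was 1.5-fold or more above or below 1 and the numbers differed by at least 3 peaks. A mean of at least 5 peaks over the lists was required, which 5 windows reached (APOB, PTPRC, IKZF1, PAX5 and SPI1) and 4 did not (ALB, CYP3A4, MS4A1 and TP63).

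At 72 h, 0 of the 5 windows were called higher, where 10.1% of 18206 tiles of 100 kb were, and 1 was called lower, IKZF1, where 1.21% of tiles were. At 6, 12, 24 and 48 h no window was called in either direction. The share of tiles called higher at these times was 2.9%, 2.52%, 4.77% and 7.65%, and the share called lower 1.66%, 1.78%, 0.857% and 0.972%. With 5 windows, counts of 0 or 1 do not set them apart from these shares. The 5 comparisons share the 0 h list.

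The IKZF1 call at 72 h rests on 7 peaks at 0 h and 4 at 72 h, a ratio of 0.486 relative to the totals. The difference of 3 peaks is the smallest that the rule admits, and at 48 h the window again held 7 peaks (ratio 0.847). With 6 h in place of 0 h as the reference, the ratio was 0.679 and the call was lost.

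For PTPRC, the ratios relative to the totals were 0.975, 1.03, 1.02, 1.21 and 1.35 from 6 to 72 h, the highest of the 5 windows at 48 and 72 h. It did not pass the fold. Without division by the totals, the PTPRC ratio at 72 h was 1.67 and the window was called higher. APOB was highest at 6 h, with 1.45, and came back to 1.01 at 72 h. By covered length, relative to the total peak length of the lists, its ratio at 6 h was 1.22. Several APOB regions held 1 peak at 0 h and 2 at 6 h, which adds to the peak number there. PAX5 was at 0.809 at 72 h, since its number stayed at 69 while the list grew, and SPI1 at 0.886. The median over the 5 windows was 0.886 at 72 h, beside 1.01 for the tiles, whose middle 50% ran from 0.873 to 1.20.

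**Figure D3:**
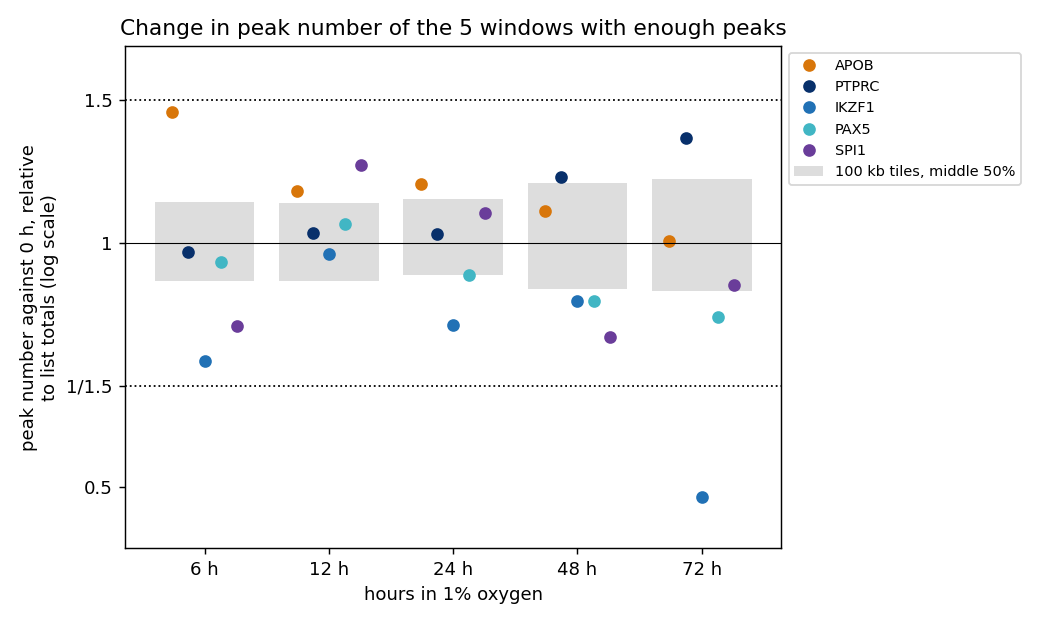
Peak number against 0 h, relative to list totals (vertical log scale), for the 5 windows with enough peaks at each time in 1% oxygen. Grey bars are the middle 50% of the 100 kb tiles and dotted lines the fold of 1.5 in both directions. IKZF1 at 72 h, at 0.486, is the one point beyond a dotted line.

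Which individual sites were kept, gained or lost was then followed through the merged regions. Of 158 regions in the 9 windows, 84 (53.2%, 95% Clopper-Pearson interval 45.1 to 61.1%) were present in all 6 lists, beside 46.8% of all 415474 regions. The share fell to 40.5% when each list had to overlap the widest peak by at least 0.5 of both. The interval covers counting error only, and regions of 1 window are not independent. PAX5 gave 48 of the 84, APOB 15, PTPRC 11, SPI1 5, IKZF1 4 and MS4A1 1.

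At 72 h and not at 0 h were 34 of the 158 regions (21.5%, beside 24.3% of all regions), and at 0 h and not at 72 h were 11 (6.96%, beside 6.41%). Among the 5 windows with enough peaks, all but IKZF1 held more regions of the first kind than of the second. PTPRC had 11 regions at 72 h without a counterpart at 0 h and 0 the other way. IKZF1 had 0 and 3. For PAX5 the numbers were 12 and 5, for APOB 6 and 2, and for SPI1 3 and 1. The difference between PTPRC and IKZF1 was not tested.

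Regions in all 5 hypoxia lists and absent in normoxia numbered 5, or 3.16% beside 2.99% of all regions. APOB held 3 of them, PTPRC 1 and PAX5 1. The widest was in APOB, at chr2:21276761-21277556, with no peak at 0 h and then widest peaks of 632, 320, 583, 329 and 781 bp, where 329 bp is the wider of 2 peaks at 48 h. In PTPRC it was chr1:198614062-198614476, with 264 to 415 bp, and in PAX5 chr9:36977759-36978060, with 244 to 279 bp. In normoxia alone were 2 of the 158 regions (1.27%, beside 1.84% of all regions), of 247 bp in the SPI1 window (chr11:47361987-47362233) and 226 bp in PAX5 (chr9:37033235-37033460). The second has the smallest width that the 0 h list holds.

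In IKZF1 a region at chr7:50436070-50436393 had peaks of 296, 265, 281 and 245 bp up to 24 h and none later. The other IKZF1 sites missing at 72 h came and went: chr7:50354843-50355223 was present at 0, 12 and 48 h, and chr7:50414971-50415653 at 0, 24 and 48 h. Sites that not all lists held were narrow. Their widest peak had a median of 334.5 bp in the 9 windows, against 823.5 bp for sites in all 6 lists. Over the whole genome the medians were 323 and 637 bp. For sites in all 6 lists the widest is taken over more peaks, which by itself makes it wider. The part of this in the difference was not tested.

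Width at the regions in all 6 lists was compared last. Of the 84 regions in all 6 lists, the widest peak was wider at 72 h than at 0 h in 53 (63.1%), narrower in 29 and equal in 2. Over the whole genome 71.0% were wider. PTPRC had 10 of 11 wider, PAX5 29 of 48, APOB 8 of 15, IKZF1 3 of 4, SPI1 2 of 5 and MS4A1 1 of 1. The median width over these regions went from 592.5 to 716 bp in the 9 windows and from 466 to 548 bp in all regions. A region's widest peak also changes when neighbouring peaks are called as 1. In the 58 regions with exactly 1 peak in each list, the median went from 532.5 to 571 bp, beside 434 to 502 bp in all such regions. Of these 58, 35 were wider (60.3%, beside 71.2% of all) and 21 narrower. PTPRC then had 8 of 9 wider, PAX5 21 of 37 and APOB 2 of 6. Narrowest peaks differ between lists (226 bp in normoxia, 242 bp in the last list), and the part of this in the widths was not tested.

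**Figure D4:**
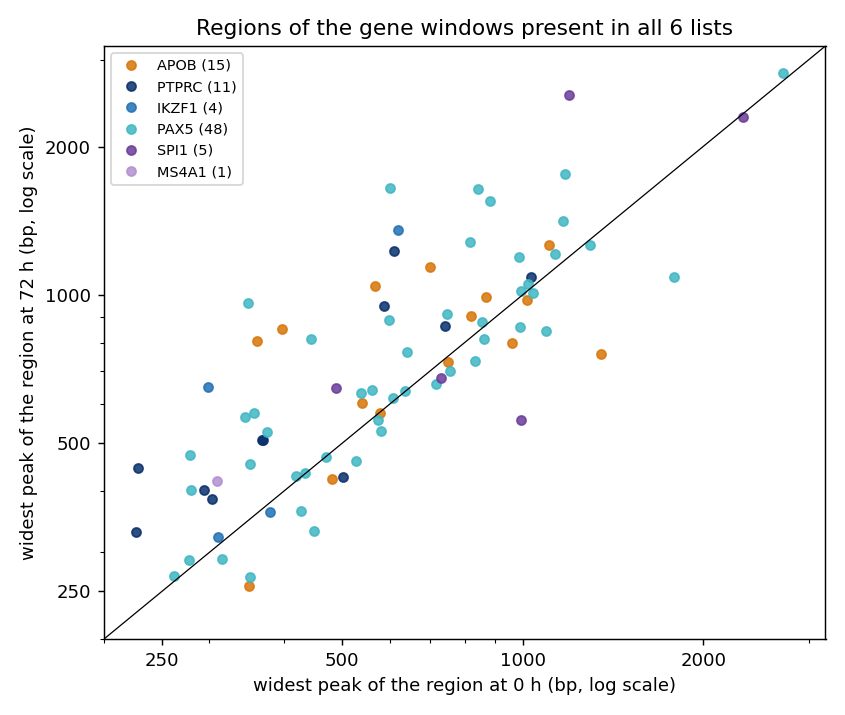
Widest peak of each of the 84 regions in all 6 lists at 0 h (horizontal) and 72 h (vertical), in bp on log scales, with the number of regions per gene in the key. Points above the line, 53 of the 84, were wider at 72 h. PTPRC has 10 of its 11 points above it.

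Several PAX5 regions held fewer peaks at 72 h than at 0 h. Of 53 PAX5 regions present at 0 and 72 h, 8 (15.1%) held fewer peaks at 72 h and 1 held more, where 5.73% of all such regions held fewer. In 6 of these 8, 1 peak at 72 h overlapped at least 2 peaks of 0 h, and in the other 2 no peak did so. The 53 regions held 64 peaks at 0 h and 57 at 72 h, beside 258534 and 251246 in all 233960 such regions. Only a region with at least 2 peaks at 0 h can hold fewer at 72 h and still be present. PAX5 had more peaks per region at 0 h, and the part of this in the difference from 5.73% was not tested. One of them, chr9:36891135-36892790, held 2, 1, 2, 1, 1 and 1 peaks from 0 to 72 h. The widest measured 600, 1648, 806, 1511, 1628 and 1648 bp, so the single wide peak was already there at 6 h. Peaks of at least 1000 bp in PAX5 numbered 9, 9, 6, 7, 9 and 15 from 0 to 72 h. They made up 9 of 69 PAX5 peaks at 0 h and 15 of 69 (21.7%) at 72 h, beside 7.73% and 8.67% of the peaks in the whole lists. The unchanged number of 69 stood beside 12 regions gained, 5 lost and fewer peaks per region.

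At the MYBPC3 side of the SPI1 window, the region chr11:47372187-47374809 held 2, 2, 2, 3, 1 and 1 peaks, and its widest was 1193, 1137, 1216, 1204, 2600 and 2540 bp. At 48 and 72 h it was 1 continuous peak. At the 3′ border of the IKZF1 window, a peak at chr7:50492014-50493374 was 619, 600, 703, 791, 1281 and 1351 bp wide. It was the widest IKZF1 peak at 72 h, and it lay in the flank, outside the gene body.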

How the data were processed

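Genomic DNA of SK-N-BE(2) cells was sheared, 5-hmC was tagged with an azide glucose and biotin, and the tagged fragments were captured and sequenced, per the labels' protocols. The deposited lists give each peak by chromosome and its end positions, with no score, height or read count (other values: positions in bp). The build is hg19 and the tools named are MACS2, HTSeq and BWA 0.7.17, per the submitters' processing notes. For the peak threshold and the control, the sources used here name none. The series has 7 samples; the input was not analysed here.

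Samples were grouped by the time in their labels. Peaks were assigned to a window by midpoint, and overlapping peaks (at least 1 bp) of the 6 lists were merged into regions. The background was all 100 kb tiles of chromosomes 1 to 22 and X, unsequenced parts included, with no test, since there is 1 library per time. The gene body is the window less 20 kb at each side. In RefSeq (GRCh38.p14, used for names, order, length and promoters only) ALB measures 17.2 kb and TP63 301 kb, while their windows leave 10 kb and 267 kb, so those flanks are shorter than 20 kb. Exons and introns were not used here, for lack of an hg19 annotation, nor were further lineage genes. The genes, windows and lists were chosen with earlier results of these data known. All 9 genes are described; single regions were named as the widest, or as gained or lost, and the peak-free stretches and regions with fewer peaks at 72 h after their values were seen. Computations were tested on simulated lists. Python 3.11.15, NumPy 2.4.6, pandas 2.3.3 and SciPy 1.17.1 were used. Alternatives are given in the closing section.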

Additional observations from a re-analysis of the deposited data

How the results depend on the processing

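The number of windows called lower at 72 h (1, IKZF1) became 0 with peaks of at least 500 bp, where 3 windows had enough peaks and IKZF1 was not among them, and 0 with 6 h as the reference (ratio 0.679, from 5 and 4 peaks). The number called higher (0) became 1, PTPRC, without division by list totals (ratio 1.67). The share of regions in all 6 lists (53.2%) was 40.5% when each list had to overlap the widest peak by at least 0.5 of both, and between 51.8% and 56.5% under the other 3 settings. The share gained in all 5 hypoxia lists (3.16%) was 0% with peaks of at least 500 bp. The causes were not tested beyond the smaller number of windows and peaks that these settings leave. Of 95 alternative values in all, 48 for the main counts and shares and 40 for single genes stayed on the same side of the size rule or within the limits set for a count or share, and the called IKZF1 ratio stayed below 1 wherever it was computed. Over all 5 genes, IKZF1 included, the ratios changed sides of 1 in 7 of 42 cases. APOB (1.01) did so in 5 of 9, down to 0.694 with 6 h as the reference and 0.809 without flanks. SPI1 (0.886) did so in 2 of 8, with 1.10 without scaling and 1.12 with 6 h. The median ratio (0.886) was 1.10 without scaling. The share in normoxia alone (1.27%) was 2.53% with overlap of 0.5 of both and 4.11% with peaks of at least 500 bp. The settings were also windows without or with further flanks, any overlap with the window, covered length, equal list lengths, 50 and 250 kb tiles and, chosen after seeing the data, no minimum number of peaks and tiles only from 1 Mb bins with peaks. The count of windows denser than the median tile was 3 to 5 at 0 h and 3 to 4 at 72 h under these settings. With covered length, the least difference of 3 was counted in bp and not in peaks, so in effect the fold alone decided. IKZF1 was called lower there on the fold alone (ratio 0.628). No paired analysis was possible because each time has 1 library. Read depth is unknown, so the sensitivity of each list in sparse windows such as TP63 has no value here.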

Other observations

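The surroundings of these genes, taken as windows of the same length on both sides, differed as much as the genes did. Beside IKZF1, the 169 kb toward higher coordinates held 72, 70, 67, 68, 73 and 68 peaks from 0 to 72 h, and the 169 kb toward lower coordinates 0, 1, 0, 0, 0 and 0. By RefSeq gene order the next protein-coding genes on the dense side are FIGNL1, which encodes an ATPase, and DDC, which encodes dopa decarboxylase of catecholamine synthesis. Whether those peaks lie in either gene was not examined, since no hg19 annotation was used.

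Beside TP63, the 307 kb toward higher coordinates held 17, 17, 16, 16, 19 and 19 peaks, and the 307 kb toward lower coordinates 4, 10, 10, 12, 15 and 15, with the lowest number at 0 h. Around CYP3A4 and MS4A1, windows of the same length on both sides held 0 peaks in all 6 lists. PAX5 was denser than its surroundings, with 69 peaks at 0 h against 32 and 25 on its sides, and at 72 h 69 against 38 and 42. APOB held 20 peaks at 0 h against 16 and 17, and 25 at 72 h against 18 and 18. PTPRC held fewer peaks than its side toward higher coordinates, 16 against 48 at 0 h and 27 against 53 at 72 h. Its side toward lower coordinates held 15, 18, 18, 22, 23 and 24 peaks from 0 to 72 h. The rise in peak number with time was thus not confined to the PTPRC window.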
